A study of Mus musculus with 4 samples.

Results

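The matrix metalloproteinases (MMP), the ADAMTS proteinases with their ADAMTS-like relatives (ADAMTSL), and the tissue inhibitors of metalloproteinases (TIMP) were followed in cells sorted from tooth and from bone. Members were chosen by symbol, as genes on the array that carry one of these family names and a number. This gave 50 genes of the 23960 on the array, read by 73 of its 55681 probes: 22 MMP, 19 ADAMTS, 5 ADAMTSL and 4 TIMP genes. The RNA came from mice 2 weeks old that carried an enhanced green fluorescent protein (EGFP) transgene under a 2.3 kb type I collagen promoter, and the dental pulp sample is labelled C57BL/6. Cells were freed from dental pulp or calvarial bone by enzymes and gated on EGFP, so both RNAs come from cells chosen by activity of the same collagen promoter, and any other cell in which that promoter fragment is active could pass the gate. Each of 4 Agilent two-colour arrays carried the RNA labelled odontoblast in Cy5 and the RNA labelled osteoblast in Cy3; the series design calls the cells donor matched, and the labels tie the RNAs of an array by a shared number. The dyes were never exchanged between the RNAs, so a dye effect at a probe cannot be told apart from the difference between the RNAs.

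Most markers of both cell types went against the labels, and the channels are therefore named by dye throughout. Dspp, the dentin matrix precursor made by odontoblasts, had log2 ratios of Cy5 over Cy3 of -2.98, -1.79, -1.80 and -1.21 on the 4 arrays, so it was higher in the channel labelled osteoblast on each. Ifitm5, a membrane protein of mineralising osteoblasts, had ratios of 6.52, 4.48, 3.89 and 5.32, higher in the channel labelled odontoblast on each. Of 8 measured odontoblast markers, 3 rose in Cy3 and 0 in Cy5. Of 11 measured osteoblast and osteocyte markers, 4 rose in Cy5 and 0 in Cy3. Over all genes, 0.872% rose in Cy3 and 1.28% in Cy5. Nes, an intermediate filament gene of odontoblasts, had a mean of -2.00. Dspp and Nes both missed the threshold of an adjusted p under 0.05. Phex and Tgfb1 of the odontoblast list had means on the other side, at 0.38 and 0.25. Alpl and Sp7 of the osteoblast list lay near 0, at 0.05 and 0.02. Every direction below is that of the dye, not of a cell type.

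MMPs are zinc endopeptidases that are secreted or held at the membrane as inactive precursors and cut collagens, proteoglycans and other matrix proteins. ADAMTS enzymes carry a related catalytic domain followed by thrombospondin type 1 repeats, and they cut proteoglycans such as aggrecan and versican, trim procollagens or act on microfibrils. ADAMTSL proteins keep the repeats and lack the catalytic domain. TIMPs block MMPs and some ADAMTS enzymes, and the balance of enzyme and inhibitor bears on the turnover of bone matrix.

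A gene counted as measured if the scanner software rated 1 of its probes well above background on 3 or more of the 4 arrays within 1 channel, and its brightest probe stood for it. This left 45 of the 50 genes: 19 MMP, 17 ADAMTS, 5 ADAMTSL and 4 TIMP. Mmp7, Mmp15, Mmp21, Adamts7 and Adamts20 were too dim. The median probe signal was 7.10 to 8.21 times background in Cy5 and at least 10.9 times in Cy3, and 75.5% to 85.2% of probes in Cy5 and 67.8% to 80.9% in Cy3 lay well above background. In these bulk samples, fewer cells of a type and less RNA per cell cannot be told apart. Nothing in the labels says that the 4 arrays came from separate litters or sorts, so the p-values cover only the spread among these hybridisations.

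Of the 45 measured members, 3 changed (6.67%): Adamts18 and Adamtsl1 were higher in Cy5 and Adamtsl2 was higher in Cy3. Over all 19618 measured genes, 422 changed at an adjusted p under 0.05 (2.15%), 251 of them higher in Cy5 (1.28%) and 171 higher in Cy3 (0.872%). No MMP or TIMP gene passed. At an unadjusted p under 0.05 there were 12 members (26.7%), against 4160 of all genes (21.2%). The sign was the same on all 4 arrays for 15 members (33.3%), 10 of them higher in Cy5 and 5 higher in Cy3, against 31.4% of all genes. The members' shares of calls at the unadjusted level and of single-signed ratios thus lay near those of all genes. Centring each array on its median, in place of loess, moved the median ratio of all genes to 0.20, against 0.01, and the calls over all genes to 1404, of which 1163 were higher in Cy5. Without array 1 or array 2, 0 members and 0 of all genes passed; without array 3, 2 members and 180 genes passed, and without array 4, 1 member and 30 genes.

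The members differed from the genes as a whole in the size of their ratios and in how far the arrays lay apart. A mean ratio of at least 1 in either direction was found for 16 members (35.6%), against 12.5% of all genes. The standard deviation (SD) over the 4 arrays had a median of 0.81 on the log2 scale for members and of 0.54 for all genes. It was above 1 for 18 members (40.0%) and for 19.9% of all genes.

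**Figure D1:**
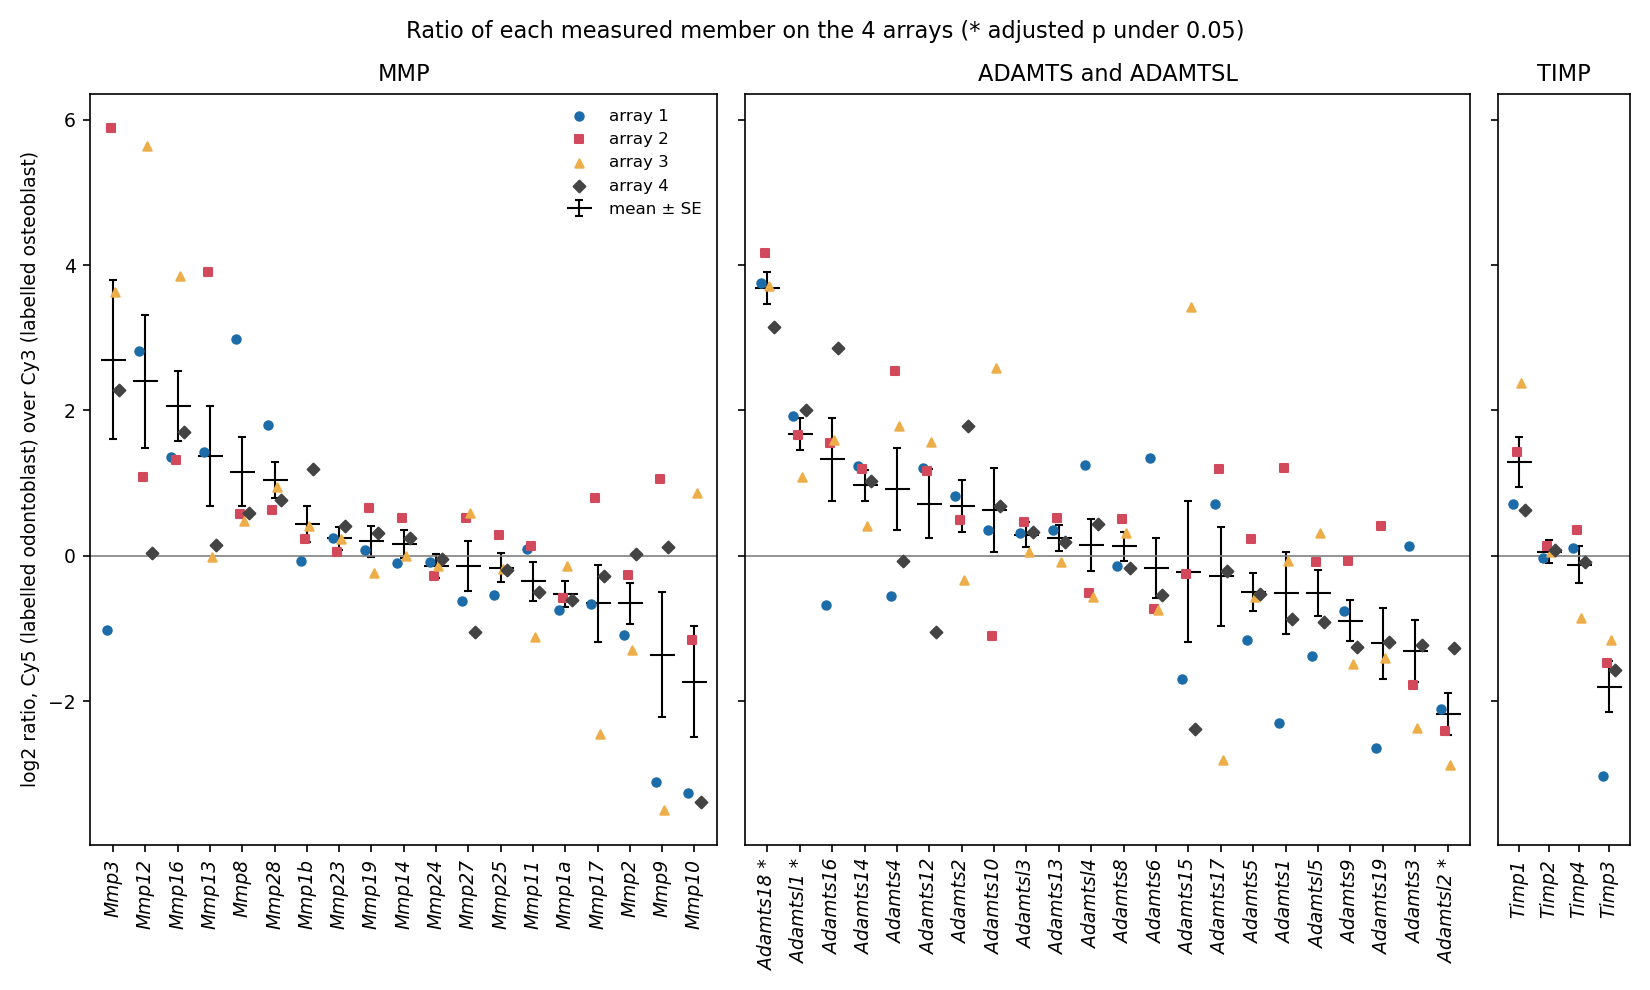
Each point is the log2 ratio of Cy5 (labelled odontoblast) over Cy3 (labelled osteoblast) of a member on 1 of the 4 arrays, and bars give the mean with the SE of the fit. Genes are ordered by mean within the MMP, ADAMTS with ADAMTSL, and TIMP panels, and an asterisk marks the 3 genes that passed the test; Mmp3 and Mmp12 have higher means than Adamtsl1 but arrays that lie much farther apart.

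Among the ADAMTS genes, the 17 measured members had a median ratio of 0.13, and the 5 ADAMTSL genes one of 0.15. Taken as 22 genes, they had 12 means above 0 and 10 below. The probes behind the 3 changed genes are given by their first 30 bases as printed on the array, because probes of 1 gene can differ in their ratio. Why they differ was not tested. Coordinates are on mm9.
Adamts18, brightest probe, chr8:116222720-116222779, minus strand: ccatagggtttaaagaatggacagatagcc
Adamts18, other probe, chr8:116368682-116368741, minus strand: gctctaatggaactcgttctttcgtgtttt
Adamtsl1, brightest probe, chr4:85898689-85922776, plus strand: tggttcaagcaagcccaggagctagaggaa
Adamtsl1, downstream probe, chr4:86074196-86074255, plus strand: ctgctggataatgcggaagaagacacttcc
Adamtsl1, upstream probe, chr4:85845401-85845460, plus strand: catctagagaagaatttgaaaattggagta
Adamtsl2, the 1 probe, chr2:26964005-26964064, plus strand: cttccttggacacccactctgcaggggatg

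Adamts18 encodes a secreted proteinase of the pair formed with Adamts16. Its normalized log2 intensity was 10.76, 11.01, 10.98 and 10.62 in Cy5 on arrays 1 to 4, against 7.01, 6.85, 7.27 and 7.47 in Cy3. The channels did not overlap, and the 4 ratios of 3.75, 4.16, 3.71 and 3.15 lay close together. The mean ratio was 3.69 ± 0.22 (SE, n = 4), with an adjusted p of 0.00729. In Cy3 the signal was rated well above background on 2 of the 4 arrays, so the gene met the filter through Cy5 alone and the size of its ratio is uncertain. With no filter its adjusted p was 0.0121. Its mean ratio became 4.47 with subtracted background, 5.21 with the scanner software's ratio and 2.40 averaged over both probes, at adjusted p-values of 0.0109, 0.0243 and 0.0148. The adjusted p was 0.0560 without array 1 and 0.0562 without array 2, with mean ratios of 3.67 and 3.54. The other probe, whose Cy3 signal was never rated well above background, had a mean ratio of 1.11, and its bound was at least 1.81-fold higher in Cy5. Such a bound sets the Cy5 mean against the higher of the dim value and the lowest signal well above background in Cy3, and it is open to dye bias.

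Adamtsl1 encodes punctin, a secreted glycoprotein of the extracellular matrix. Its brightest probe had normalized log2 intensities of 12.31, 12.23, 12.27 and 12.87 in Cy5, against 10.38, 10.57, 11.19 and 10.87 in Cy3. The channels were apart on every array, and the mean ratio was 1.67 ± 0.22 (SE, n = 4), 3.18-fold higher in Cy5, with an adjusted p of 0.0375. That probe's 60 bases map across 24088 bases of the genome, so it reads a spliced transcript. The downstream probe had a mean ratio of 1.41 and a bound of at least 2.49-fold higher in Cy5. The upstream probe went the other way, with ratios of 0.62, -2.24, -2.01 and -0.25 and a mean of -0.97. Its Cy5 signal was rated well above background on 2 of the 4 arrays. Averaged over the 3 probes, Adamtsl1 had a ratio of 0.70 and an adjusted p of 0.212. It also missed the threshold without array 1, 2 or 4, at an adjusted p of 0.154, 0.153 and 0.174.

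Adamtsl2 encodes a glycoprotein that binds fibrillin microfibrils and latent TGF-beta binding protein, and is mutated in human geleophysic dysplasia. Its normalized log2 intensity was 8.41, 8.35, 8.01 and 7.98 in Cy5, against 10.51, 10.76, 10.88 and 9.26 in Cy3. All arrays were lower in Cy5, array 4 by the least. The mean ratio was -2.17 ± 0.29 (SE, n = 4), 4.49-fold higher in Cy3, with an adjusted p of 0.0402. Leaving out any 1 array kept the direction and ended the call, at adjusted p-values of 0.159 (array 1), 0.159 (array 2), 0.0804 (array 3) and 0.0892 (array 4).

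**Figure D2:**
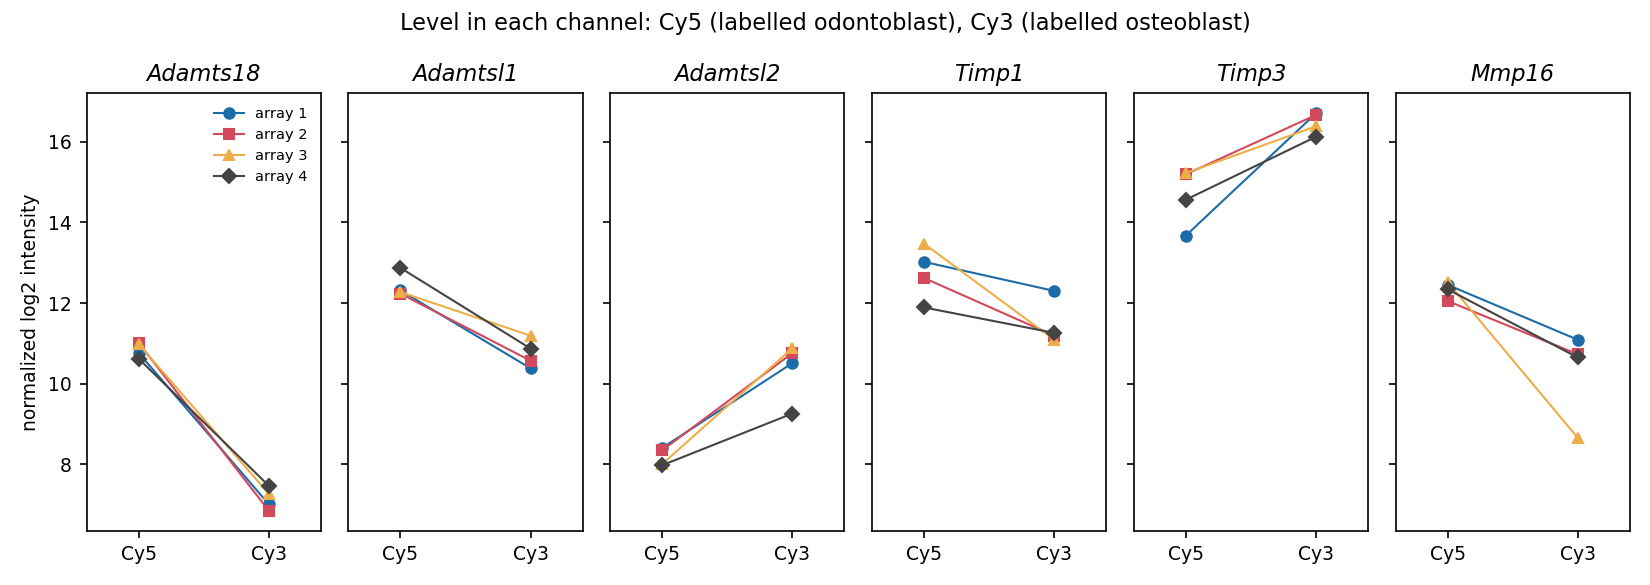
Normalized log2 intensity of 6 members in Cy5 (labelled odontoblast, left) and Cy3 (labelled osteoblast, right), with a line joining both channels of each of the 4 arrays. Lines fall for Adamts18 and Adamtsl1 and climb for Adamtsl2 and Timp3 on every array, and the Mmp16 line of array 3 starts level with the others and ends at 8.66.

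The ADAMTS enzymes that cut aggrecan and versican, the hyalectanases, were measured as 6 genes (Adamts1, Adamts4, Adamts5, Adamts8, Adamts9 and Adamts15), and none passed. Their median ratio was -0.36, with 2 means above 0 and 4 below, and 1 of them held the same sign on all 4 arrays. Adamts4, an aggrecanase, had ratios of -0.55, 2.54, 1.79 and -0.07, so arrays 2 and 3 stood above the other two. Adamts5, the other main aggrecanase of mouse cartilage, had ratios of -1.15, 0.23, -0.56 and -0.52. It reversed to 0.03 under median centring. Adamts1, which lies beside Adamts5 on chromosome 16, had ratios of -2.30, 1.21, -0.07 and -0.87. Adamts15 had ratios of -1.69, -0.25, 3.42 and -2.38. Adamts9 was below 0 on all arrays, at -0.76, -0.07, -1.49 and -1.25, with a mean of -0.89 ± 0.28 and an adjusted p of 0.189. Adamts8 had a mean of 0.13. Adamts8 was the highest of the 6 on array 1, Adamts4 on arrays 2 and 4, and Adamts15 on array 3.

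The procollagen N-proteinases remove the amino-terminal propeptide of fibrillar procollagens and comprise Adamts2, Adamts3 and Adamts14. Adamts14 was higher in Cy5 on all arrays, with ratios of 1.24, 1.20, 0.41 and 1.03 and an adjusted p of 0.110. Under median centring its ratio was 1.19 and its adjusted p 0.0322. Its other probe had ratios of -0.51, 0.23, 0.94 and 0.30. Adamts2, the main enzyme for type I procollagen in skin, had ratios of 0.82, 0.49, -0.33 and 1.78. Adamts3 had ratios of 0.13, -1.78, -2.36 and -1.22, with a mean of -1.31 ± 0.43 and an adjusted p of 0.201. Adamts3 and Adamts14 thus lay on opposite sides of 0 without either passing the test, and the difference between them was not tested.

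Of the other ADAMTS genes, Adamts16 had ratios of -0.68, 1.55, 1.60 and 2.86, with array 1 apart from the rest. Adamts12, a COMP-cleaving enzyme, had ratios of 1.21, 1.17, 1.56 and -1.04 at its brightest probe, with array 4 apart. Its other kept probe had ratios of 3.59, -0.95, 2.28 and -0.90. Adamts10, a fibrillin-binding family member, had ratios of 0.36, -1.10, 2.58 and 0.68, and its mean of 0.63 became -0.02 without array 3. Adamts6, its closest relative, had ratios of 1.34, -0.73, -0.74 and -0.54. Adamts17 had ratios of 0.72, 1.19, -2.80 and -0.21, and its mean of -0.28 became 0.56 without array 3. Adamts19 had a mean of -1.20 and Adamts13, which cleaves von Willebrand factor, one of 0.25. Adamtsl3, Adamtsl4 and Adamtsl5 had means of 0.29, 0.15 and -0.51. For Adamts10 and Adamts17, array 3 thus decided the sign of the mean at the brightest probe. The other kept Adamts17 probe had ratios of 2.29, -0.30, 0.05 and 0.09, with a mean of 0.53.

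For 16 measured members, several probes were kept, and their ratios could be set side by side. In 12 of them all kept probes had means of the same sign. In the other 4 (Adamts13, Adamts17, Adamtsl1 and Timp2) the probes lay on both sides of 0. The remaining 29 measured members rest on 1 kept probe.

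**Figure D3:**
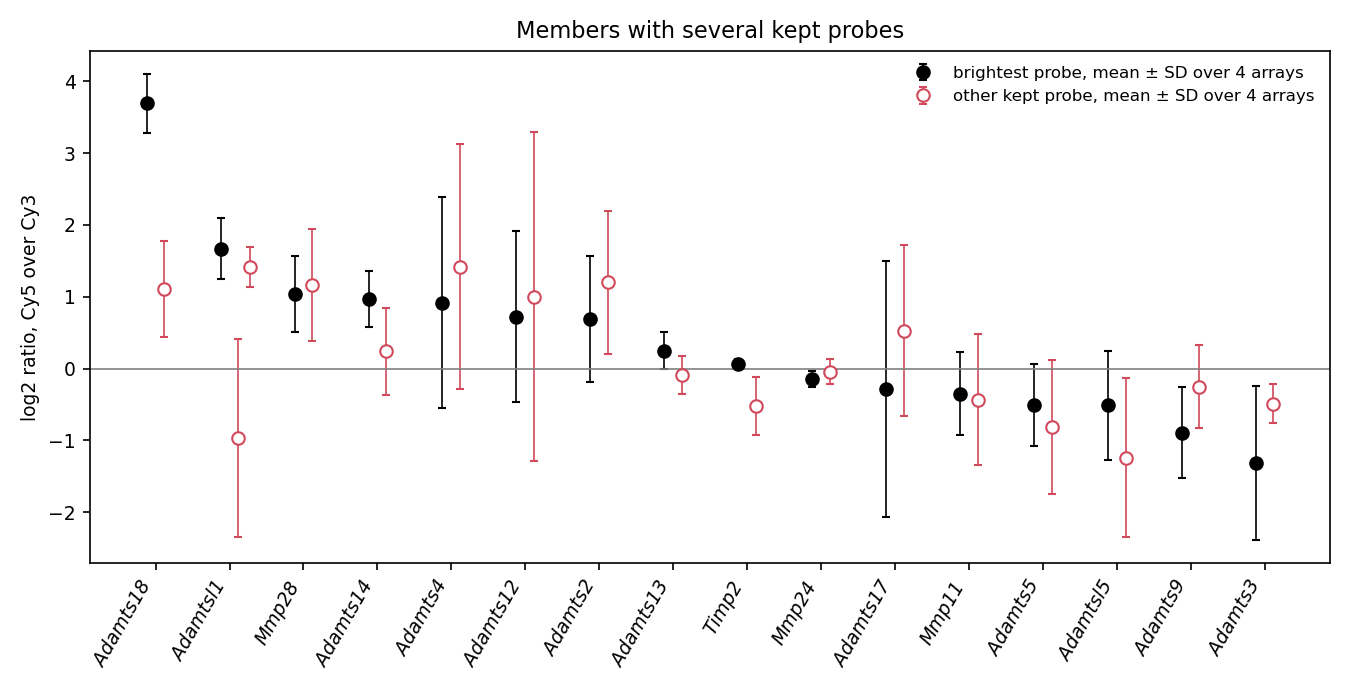
Mean log2 ratio of Cy5 (labelled odontoblast) over Cy3 (labelled osteoblast) for each kept probe of the 16 members with several, with the SD over 4 arrays; filled points are the brightest probe of the gene and open points the others. The 3 Adamtsl1 probes run from -0.97 to 1.67, and the Adamts18 probes lie at 3.69 and 1.11.

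No MMP passed the test: the 19 measured genes had a smallest adjusted p of 0.120 and 4 with an unadjusted p under 0.05 (21.1%). Their median ratio was 0.16, with 10 means above 0 and 9 below. In data simulated over all features of these arrays, 82% of those with a 4-fold change and 0% of those with a 2-fold change were called, beside 6 false calls. Changes near 2-fold were thus not detectable there with 4 arrays. The SD over arrays was above 1 for 42.1% of MMP genes and 19.9% of all genes, so these shares may not hold for MMP genes. For 8 of the 19 genes (42.1%) the mean ratio was at least 1 in either direction, and for 8 the SD over arrays was above 1.

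The MMP genes can also be set out by genome position. In mouse, 8 of the 19 measured genes lie in 1 cluster on chromosome 9, in the order Mmp13, Mmp12, Mmp1b, Mmp3, Mmp1a, Mmp10, Mmp8 and Mmp27; the dim Mmp7 lies in the same stretch. Their SD over arrays had a median of 1.51, against 0.53 for the 11 MMP genes elsewhere, and it was above 1 for 5 of the 8 and for 3 of the 11 (Mmp9, Mmp16 and Mmp17), so the groups overlapped. Their median ratio was 0.80, against -0.14 elsewhere. Both figures are descriptions of a few neighbouring genes, without a test.

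Many MMP promoters are known to carry a site for AP-1, the Fos and Jun family of transcription factors, close to the start of transcription. The motif TGANTCA was searched in the 250 bases before each start in the RefSeq promoter table (GRCm38.p6), where N is any base and the motif reads the same on both strands. It was found in 7 of 17 MMP genes with a promoter there (41.2%), in 0 of 14 ADAMTS and ADAMTSL genes and in 0 of 4 TIMP genes, against 7.82% of 27025 genes in all. All 7 lie in the chromosome 9 cluster (Mmp1a, Mmp1b, Mmp3, Mmp7, Mmp10, Mmp12 and Mmp13), while Mmp8 and Mmp27 of the same cluster had none. Mmp2, Mmp9, Mmp16, Mmp17 and Mmp19, all outside the cluster, had no promoter to search, so whether they carry the motif is not known here. Mmp7 and Mmp12 each have a second start in the table, without the motif before it. A match is a string of letters and not a measured binding site. The last 100 bases before the start of 6 of them show where the motif, in capitals, sits, with Mmp8 as a neighbour without it; each reads 5′ to 3′ toward the gene.
Mmp13, chr9:7272414-7272513, plus strand: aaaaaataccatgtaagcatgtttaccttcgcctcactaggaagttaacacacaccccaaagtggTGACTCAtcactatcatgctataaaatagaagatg
Mmp12, chr9:7347274-7347373, plus strand: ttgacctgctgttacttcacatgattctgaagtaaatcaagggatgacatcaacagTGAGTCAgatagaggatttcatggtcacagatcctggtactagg
Mmp1b, chr9:7388027-7388126, minus strand: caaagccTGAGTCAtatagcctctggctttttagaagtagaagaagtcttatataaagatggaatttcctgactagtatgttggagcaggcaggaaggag
Mmp3, chr9:7445722-7445821, plus strand: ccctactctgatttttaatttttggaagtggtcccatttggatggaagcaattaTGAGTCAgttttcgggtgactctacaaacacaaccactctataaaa
Mmp1a, chr9:7464041-7464140, plus strand: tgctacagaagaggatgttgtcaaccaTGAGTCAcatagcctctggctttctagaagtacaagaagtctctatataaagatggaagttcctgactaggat
Mmp10, chr9:7502242-7502341, plus strand: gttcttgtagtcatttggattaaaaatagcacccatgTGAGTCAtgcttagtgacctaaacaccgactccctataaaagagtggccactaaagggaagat
Mmp8, chr9:7558329-7558428, plus strand: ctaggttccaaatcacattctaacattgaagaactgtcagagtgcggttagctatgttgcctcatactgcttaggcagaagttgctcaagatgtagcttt

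The 6 measured genes with the motif did not move together. Mmp3, a stromelysin that activates other MMPs, had ratios of -1.02, 5.89, 3.63 and 2.28. Its Cy5 level was 6.12, 13.69, 11.27 and 10.04 on the log2 scale, while its Cy3 level stayed between 7.14 and 7.79. The spread thus lay in the Cy5 channel, where the signal was rated well above background on 3 of the 4 arrays. The mean ratio was 2.70 ± 1.09 (SE, n = 4), with an adjusted p of 0.267. Mmp10, the second stromelysin and a near neighbour, had ratios of -3.26, -1.16, 0.87 and -3.39. Its signal was rated well above background on 3 of the 4 arrays in each channel. As far as such dim levels show, the spread lay mainly in Cy3, with levels of 9.81, 7.52, 6.76 and 9.84, against 6.56, 6.36, 7.63 and 6.45 in Cy5. Mmp3 and Mmp10 therefore had means of opposite sign, neither of which passed.

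Mmp13, collagenase-3, made by late hypertrophic chondrocytes and osteoblasts, was bright in both channels. Its ratios were 1.43, 3.91, -0.01 and 0.15, and its lowest Cy3 level, 11.48, was on array 2, where the others ranged from 12.98 to 14.84. Mmp12, the macrophage elastase, had ratios of 2.82, 1.09, 5.64 and 0.04, with a mean of 2.40 ± 0.92 and an adjusted p of 0.251. A second Mmp12 probe, not above background in either channel on any array and so left out, had a mean ratio of 0.16. Macrophage and leukocyte markers also differed between channels: 2 of 11 measured (Lyz2 and Laptm5) rose in Cy5 and 0 in Cy3, with a median ratio of 1.76. Of the 11, 8 had means above 0 and 3 below: Csf1r (-0.39), Cd68 (-0.10) and Cd14 (-0.05). Lyz2, lysozyme, had ratios of 5.16, 3.68, 5.81 and 3.05. Array 3 was the highest for both Lyz2 and Mmp12, as it was for 32.5% of all genes. Ptprc, the pan-leukocyte marker, had ratios of 0.87, 0.81, 1.42 and 0.67 and a signal well above background throughout; the part of these cells in the Mmp12 values was not tested.

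Mmp1a and Mmp1b, mouse counterparts of human interstitial collagenase, stayed closer to 0. Mmp1a was below 0 on each array, at -0.75, -0.58, -0.14 and -0.61, with an adjusted p of 0.224. Mmp1b had ratios of -0.07, 0.23, 0.41 and 1.19 and a Cy3 signal rated well above background on 1 array. Mmp8, the neutrophil collagenase, had ratios of 2.98, 0.57, 0.48 and 0.59, higher in Cy5 on all arrays, with array 1 far from the rest. Neutrophil and myeloid progenitor markers had medians of -0.52, -0.04, 0.05 and -0.15 on the 4 arrays, and 0 of 9 passed in either direction. Of the 9, 3 had means above 0 and 6 below. Mpo, the granule peroxidase, had a mean of -0.23, while Ly6g had ratios of 0.91, 2.56, 0.32 and 1.35. S100a8, Ltf and Retnlg of this list were not measured. The part of these cells in the Mmp8 values was not tested. Mmp27 had a mean of -0.14 that reversed to 0.08 under median centring.

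**Figure D4:**
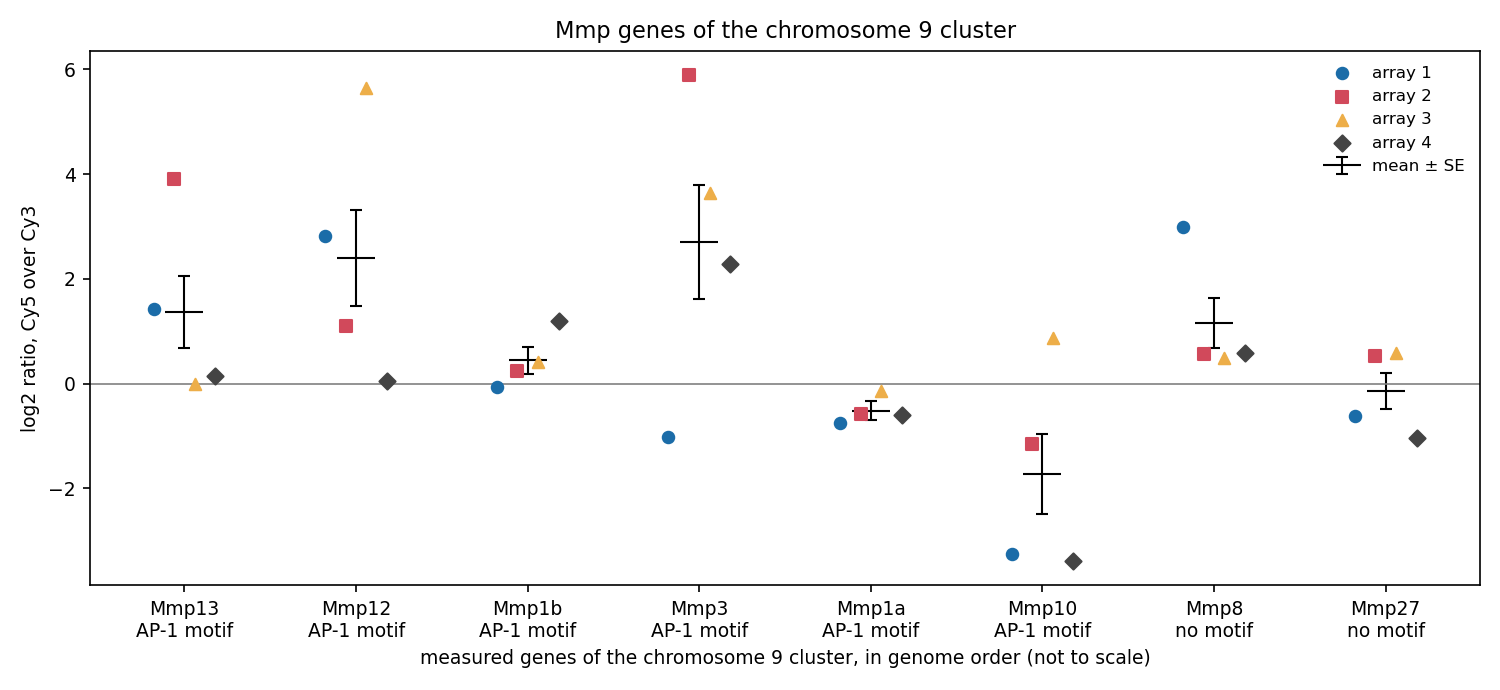
Log2 ratio of Cy5 (labelled odontoblast) over Cy3 (labelled osteoblast) on each array for the 8 measured Mmp genes of the chromosome 9 cluster, in genome order, with mean and SE; the axis label says whether TGANTCA occurs in the 250 bases before the start. The 6 genes with the motif have means from -1.73 (Mmp10) to 2.70 (Mmp3).

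Outside the cluster, the gelatinases and collagen-cutting membrane enzymes differed in how steady they were. Mmp9, gelatinase B, a product of osteoclasts and leukocytes, had ratios of -3.11, 1.06, -3.50 and 0.12. In Cy5 its signal was rated well above background on 3 of the 4 arrays. Osteoclast markers had medians of 0.42, 0.86, -0.11 and 0.21 on the same arrays, 0 of 8 passed, and Acp5 had ratios of -0.59, 1.49, -0.04 and 0.18; their part in the Mmp9 values was not tested. Mmp2, gelatinase A, had ratios of -1.09, -0.26, -1.29 and 0.03, and its mean of -0.65 became 0.12 under median centring. Mmp14, the membrane-type enzyme that activates the Mmp2 precursor, had ratios of -0.10, 0.52, -0.00 and 0.24, and normalized log2 intensities from 15.80 to 16.12 in Cy5, against 15.58 to 15.94 in Cy3. By contrast with Mmp9, Mmp14 varied little from array to array. Under median centring the Mmp14 ratio was 1.16 with an adjusted p of 0.0285.

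Mmp16, a second transmembrane MMP that acts on fibrillar collagen, came nearest to the threshold in its family. Its ratios were 1.36, 1.32, 3.85 and 1.70, all higher in Cy5. Its normalized log2 intensity was 12.45, 12.05, 12.52 and 12.34 in Cy5, against 11.09, 10.73, 8.66 and 10.65 in Cy3. The channels did not overlap, and the low Cy3 value on array 3 made most of the spread. The mean ratio was 2.06 ± 0.48 (SE, n = 4), with an adjusted p of 0.120. Mmp28, epilysin, was also higher in Cy5 on all arrays, at 1.80, 0.63, 0.95 and 0.77, with an adjusted p of 0.128. Under median centring its ratio was 1.25 and its adjusted p 0.0429. Of the other membrane-type genes, Mmp17 had ratios of -0.66, 0.80, -2.45 and -0.28, and Mmp24 and Mmp25 had means of -0.14 (0.03 under median centring) and -0.16. Mmp11, Mmp19 and Mmp23 had means of -0.35, 0.20 and 0.24. Mmp23 was above 0 on all arrays, and all of its 4 ratios were between 0.06 and 0.41.

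The 4 TIMP genes split in direction, and none passed. Timp3, the inhibitor that stays bound to the matrix and also blocks Adamts4, Adamts5 and Adam17, had normalized log2 intensities of 13.67, 15.19, 15.22 and 14.56 in Cy5, against 16.70, 16.66, 16.38 and 16.12 in Cy3. It was lower in Cy5 on every array and the channels did not overlap, with array 1 showing the widest gap. The mean ratio was -1.80 ± 0.35 (SE, n = 4), 3.49-fold higher in Cy3, with an adjusted p of 0.0845. Timp1, a soluble inhibitor encoded on the X chromosome, had intensities of 13.02, 12.62, 13.47 and 11.89 in Cy5, against 12.30, 11.19, 11.09 and 11.26 in Cy3. It was higher in Cy5 on every array, though the ranges of the channels overlapped. The mean ratio was 1.29 ± 0.34 (SE, n = 4), with an adjusted p of 0.149. Timp1 and Timp3 thus had unadjusted p-values under 0.05 in opposite directions, and the difference between them was not tested.

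Timp2 and Timp4 lay near 0. Timp2, which also takes part in activation of the Mmp2 precursor by Mmp14, had ratios of -0.03, 0.14, 0.06 and 0.08. Its SD of 0.07 was the lowest of the 45 members, but its second probe had ratios of -1.03, -0.53, -0.46 and -0.06. The mean over both probes was -0.23, the scanner software's own ratio was -0.08, and median centring gave 0.99 with an adjusted p of 0.0300. Timp4 had ratios of 0.11, 0.35, -0.86 and -0.08 and reversed from its mean of -0.12 to 0.14 under median centring. The direction of Timp2 therefore depends on both the probe and the scaling.

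Genes that act on these enzymes or are cut by them were read from 4 lists. For the counts in these lists and in the marker lists, the shares over all genes were 1.28% higher in Cy5 and 0.872% higher in Cy3. Of 20 activators and other regulators, such as the plasminogen system and Reck, a membrane inhibitor of MMPs, 0 rose in either channel, with 5 at an unadjusted p under 0.05 and a median ratio of 0.39. The brightest were Bsg, an inducer of MMP expression, at 0.57, and Serpine2, a protease inhibitor, at 1.61. Of 24 other matrix-degrading and shedding proteases, 3 rose in Cy5 and 0 in Cy3, with a median of 0.11. Those 3 were Ctss, a lysosomal cysteine protease of antigen-presenting cells (2.65), Adam23, an ADAM family member without protease activity (2.22), and Ctsd, an aspartic protease of lysosomes (1.33). In Cy3 the Ctss signal was rated well above background on 1 array. Ctss thus met the filter through Cy5 alone, and the size of its ratio is uncertain. Ctsb and Ctsl, further lysosomal cysteine proteases, had ratios of -1.88 and -1.46 and did not pass.

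Substrates showed the highest median of the 4 lists, 1.39 over 22 genes, against 0.01 for all genes. Of the 22, 5 rose in Cy5 (22.7%) and 0 in Cy3, against 1.28% and 0.872% of all genes. Comp, a cartilage and tendon matrix protein cut by Adamts7 and Adamts12, had a mean ratio of 6.92 ± 0.50 (SE, n = 4). The other 4 were Col2a1 (4.34), Tnc (4.24), Fn1 (3.85) and Col1a2 (2.79). In Cy3 the Col2a1 signal was rated well above background on 1 array. Col2a1 thus met the filter through Cy5 alone, and the size of its ratio is uncertain. Col1a1 and Sparc, the brightest that did not pass, had ratios of 1.80 and 1.56. Osteoblast and osteocyte markers had a median of 2.65 (4 of 11 rose in Cy5) and share Col1a1, Col1a2 and Spp1 with the substrates. Cartilage markers had a median of 0.95 (3 of 13 rose in Cy5) and share Comp, Col2a1 and Acan. Tendon, periosteum and fibroblast markers had a median of 1.23 (4 of 13 rose in Cy5) and share Col3a1. Their part in the substrate values was not tested.

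Of 17 transcription factors known to act on Mmp promoters, 1 rose in Cy3 and 0 in Cy5. That gene was Etv4, an ETS factor, with ratios of -1.81, -2.14, -1.40 and -2.20. The AP-1 members fell on both sides of 0: Fosl1 had a mean of -2.37 with an adjusted p of 0.0902 and Jun one of -1.02, while Junb and Fos had means of 1.38 and 1.24. Ets1, among the brightest, had ratios of -0.49, -0.09, 3.05 and -1.32. The list median was -0.17.

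Markers of further cell types that the gate could hold were mostly near 0. Endothelial markers gave 0 of 7 in either direction, with Pecam1 at 0.29, -0.80, -4.33 and 0.66. Schwann cell markers gave 0 of 8 and red cell markers 0 of 3. Of 10 smooth muscle markers, 1 rose in Cy3. Of 7 dental epithelium markers, 2 (Odam and Ambn) rose in Cy3, Ambn with ratios of -2.58, -2.89, -4.16 and -2.56. Their list median was -0.14. Perp had a mean of -1.65, while Krt5, Krt14, Epcam and Krt17 lay near 0, at -0.14, -0.10, -0.03 and 0.03. Adamtsl2 and Timp3 were higher in Cy3 too, and the part of dental epithelium in their values was not tested.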

How the data were processed

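RNA of 4 arrays was read in 1 group, as the ratio of Cy5 (labelled odontoblast) over Cy3 (labelled osteoblast). Per the file headers, Agilent Feature Extraction 10.7.3.1 made the scanner files, which hold mean spot intensity and median background intensity of both channels without normalization for 62976 spots, and its own log10 ratio. A deposited value table holds log10 values that equalled that ratio for 99.3% to 99.4% of probes within 0.0001, with a median of 0 and in the same direction. Any later step of the authors is not stated in the sources used here.

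Intensities were corrected with normexp (offset 50) and normalized within arrays by loess (R 4.3.3, limma 3.58.1). Control spots (3671) took no weight in loess and were then dropped, 949 values marked as outliers became missing, 0 spots were saturated, and repeat spots of a probe were averaged. The filter kept 44236 of the 55681 probes. Symbols came from a RefSeq table of GRCm38.p6 by accession (27235 probes) or as current symbol (3581), 1987 kept an older name and 22878 had none. The mean log2 ratio of 37366 features was tested against 0 (lmFit, eBayes, two-sided), and p-values were adjusted over the whole table by Benjamini-Hochberg and read at 0.05. Per-channel levels used loess and Aquantile. The procedure was tested on simulated data.

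1 Mmp gene is not reported here. Members and gene lists were chosen with earlier results of these data known. Named with every array were called members, the 6 largest ratios in each direction per family among those well above background throughout, all Timp genes and members with bounds. Other choices of background, normalization, filter, probe and variance were tried, and each array was left out in turn. Planned searches of protein sequence were not run, because no protein table was used here. All arrays shared 1 slide and 1 scan.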

Additional observations from a re-analysis of the deposited data

Results flagged for a closer look

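In 4 of the 48 members and family medians examined, 1 of the 4 arrays lay far from the other three, its gap to the nearest, as a share of the whole range, exceeding Dixon's critical value for 4 values, which chance gives in about 1 in 20. Adamts12 had a ratio of -1.04 on array 4, against 1.17 to 1.56 on the others, at its brightest probe. Its other kept probe was at -0.95 on array 2 and -0.90 on array 4. Adamts6 had 1.34 on array 1, where the others were between -0.74 and -0.54. Mmp8 had 2.98 on array 1, against 0.48 to 0.59. Mmp16 had 3.85 on array 3, against 1.32 to 1.70.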

How the results depend on the processing

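Under median centring in place of loess, all genes called numbered 1404, MMP members 2 (Mmp14 and Mmp28), TIMP members 1 (Timp2), and the TIMP median was 0.57, against -0.03. The scanner software's ratio and the deposited value table each gave 272 genes and 1 ADAMTS member, Adamts18. Leaving out 1 array gave 0 to 180 genes (0 without array 1 and 0 without array 2, where 3165 and 3385 had an unadjusted p under 0.05, 180 without array 3 and 30 without array 4) and 0 to 2 ADAMTS and ADAMTSL members. No MMP or TIMP member passed when an array was left out. Means changed sign, none of them called, under median centring for Timp4 (0.14), Mmp27 (0.08), Adamts5 (0.03), Mmp2 (0.12), Adamts6 (0.06) and Mmp24 (0.03), and with the software's ratio or the value table for Timp2 (-0.08) and Adamts15 (0.42). Averaging probes gave Timp2 -0.23 and Adamts17 0.13. With 1 array left out, means crossed 0 for Adamtsl4 (-0.21 to 0.39, below 0 without array 1), Mmp27 (-0.38 to 0.16, above 0 at 0.02 and 0.16 without array 1 or 4), Adamts15 (-1.44 to 0.49, above 0 at 0.26 and 0.49 without array 1 or 4), Adamts1 (-1.08 to 0.09, above 0 without array 1), Adamts6 (-0.67 to 0.03, above 0 without array 2 or 3), Timp4 (-0.28 to 0.13), Adamts10 (-0.02 to 1.21) and Adamts17 (-0.76 to 0.56), the last 3 without array 3. Adamtsl1 also missed the threshold with scaled arrays (0.0503), subtracted background (0.0519) and the software's ratio (0.0711), and Adamtsl2 with that ratio (0.0599) and without the filter (0.0566). Adamts18 was not measured where both channels had to be well above background on all arrays. The causes were not tested. The slide and scan block was not run because all arrays shared both. No paired analysis was possible because there is 1 group, whose ratio already pairs the RNAs of an array.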

Other observations

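The extreme values of the members were unevenly spread over the arrays. Array 2 held the highest of the 4 ratios for 20 of 45 members (44.4%), against 25.3% of all genes, and the lowest for 5 (11.1%), against 23.4%. Array 3 held the lowest ratio for 19 members (42.2%), against 32.7% of all genes. Mmp3 (5.89), Mmp13 (3.91), Adamts4 (2.54), Adamts1 (1.21) and Mmp9 (1.06) were among the genes highest on array 2. The median over members was 0.49 on array 2 and between -0.03 and 0.03 on the other three, while the median over all genes lay between -0.01 and 0.04 on every array. Cartilage markers had a median of 2.37 on array 2, against 0.28 to 0.69 on the others. Array 2 was also highest for Schwann cell markers (1.42, against 0.26 to 0.88) and osteoclast markers (0.86, against -0.11 to 0.42). The same held for smooth muscle and dental epithelium markers, other proteases and substrates (2.39, against 0.85 to 1.26). Odontoblast, osteoblast, macrophage, neutrophil, endothelial, tendon and red cell markers, activators and transcription factors were highest on another array. No test was made of these counts and medians.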
